A study of Mus musculus with 96 samples.

Results

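The cytosolic ribosomal protein genes encode the proteins of the 40S and 60S subunits, which together make the ribosome that translates nuclear messenger RNA. They were taken here as the gene symbols that begin with Rpl or Rps followed by a number and at most one of the letters a, l or x, together with Rpsa and the stalk proteins Rplp0, Rplp1 and Rplp2. This gave 81 of the 23955 genes in the table: 32 of the small subunit, 46 of the large subunit and 3 of the stalk, the flexible arm on the large subunit that recruits elongation factors.

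The levels come from 96 single bone marrow cells of C57BL/6 mice. All 96 are ThPOK-/-, so they lack the transcription factor ThPOK, whose gene is Zbtb7b. Their label is modified GMP, where GMP stands for granulocyte-monocyte progenitor, the precursor of neutrophils and monocytes. CD117-enriched, sorted cells were separated on a Fluidigm C1 chip and sequenced from SMARTer cDNA. Neither an animal nor an age is named, so the 96 cells are 1 sample, and every comparison between cells is a description with no test. The authors gave 69 cells a state: 26 are Multi-Lin-1, 31 IG2 and 12 proNeu-1, while 27 were given none. The sources used here do not say how states were assigned, and they may rest on these same values. Zbtb7b was at a TPM of 1 or more (transcripts per 1000000, each scaled by its length) in 2 of the 96 cells, both of Multi-Lin-1, with 2.12 TPM at most. For comparison with the label, Mpo and Elane, which mark granulocytic progenitors, were found in 100% and 95.8% of cells. Kit, which encodes CD117, was found in 69.8% and Cd34 in 76.04%. Other granule genes were found in fewer cells, such as Prtn3 in 90.6%, Hp in 39.6% and Fcnb in 8.33%. The mean log2(TPM + 1) of Elane was 3.58 in Multi-Lin-1 and 13.3 in IG2. Of mast cell and basophil genes, Gata2, Cpa3 and Hdc were found in 63.5%, 59.4% and 65.6% of cells, and Fcer1a in 5.21%. The monocytic genes Irf8 and Csf1r were found in 8.33% and 4.17%, and the B and T cell markers Pax5, Ebf1, Cd3e and Cd3g were listed at 0 throughout. Of the same marker lists, Nkg7, a granule gene of T and NK cells, was found in 96.9% of cells, Cd79b in 26.04% and Cd3d in 8.33%.

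Ribosomal proteins are made in near-equal amounts, because each ribosome holds about one copy of most of them. Their messenger RNAs are known as TOP mRNAs: transcription starts at a C within a run of pyrimidines, and the run at the 5′ end lets mTOR signalling and the protein Larp1 control their translation. Loss of one copy of certain members, Rps19 first among them, causes Diamond-Blackfan anaemia, in which red cell precursors fail. The genes are also known for many processed pseudogenes, copies of the messenger RNA inserted elsewhere in the genome, and these bear directly on how reads are assigned below.

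A RefSeq promoter on GRCm38.p6 was matched for 60 of the 81 genes. The windows below show the pyrimidine run at the start site in 5 members picked as examples, and then 2 paralogues, Rps27l and Rpl10l, whose windows differ. Each runs from 20 bases before to 15 bases after the annotated start, 5′ to 3′ on the gene's strand, and the capitals mark the longest run of C and T where it reaches 9 bases. Rpl35 lies at chr2:39005117-39005151 (minus strand), Rpl15 at chr14:18270972-18271006 (minus), Rps18 at chr17:33955651-33955685 (minus), Rps6 at chr4:86857353-86857387 (minus), Rpl28 at chr7:4792945-4792979 (plus), Rps27l at chr9:66946066-66946100 (plus) and Rpl10l at chr12:66284387-66284421 (minus).
Rpl35: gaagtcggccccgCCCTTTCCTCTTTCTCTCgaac
Rpl15: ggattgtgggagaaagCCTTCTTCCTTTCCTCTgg
Rps18: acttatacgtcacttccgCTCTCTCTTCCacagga
Rps6: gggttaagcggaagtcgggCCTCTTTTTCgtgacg
Rpl28: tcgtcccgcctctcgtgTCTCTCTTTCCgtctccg
Rps27l: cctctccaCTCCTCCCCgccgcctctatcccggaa
Rpl10l: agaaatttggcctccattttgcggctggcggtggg
The run spans the start site or begins within 1 base of it in Rpl35 (18 bases), Rpl15 (17 bases), Rps18 and Rpl28 (11 bases each) and Rps6 (10 bases). In Rps27l it has 9 bases and ends ahead of the start. Rpl10l, a retrocopy of Rpl10 known from testis, has no such run in this window and was listed at 0 in all 96 cells.

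Over all matched promoters, 42 of 60 members (70%) held a run of at least 10 C or T on the gene's strand from 50 bases before to 50 after the start, against 20.6% of the 27025 genes with a promoter. On the other strand the share was 11.7% of members and 21.2% of all genes, so the higher share lay on the strand of the messenger RNA. Members without such a run included Rpl5, Rplp0, Rps3 and Rpl24, so its lack was not particular to paralogues. In Rpl37a and Rpl39 the longest run began at bases 24 and 37 from the start. In the whole window of 300 bases, searched on both strands, CCGGAAG (the core bound by ETS-family factors such as GABP) was found in 41.7% of members and 9.93% of all genes. TCTCGCGA, a palindromic core-promoter element, was found in 16.7% and 1.13%. TATAAA was found in 10% and 15.7%, and AAGATGGCG, a core of the YY1 motif, in 5% and 1.64%. The pyrimidine run can overlap the other motifs.

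Levels of the genes spanned a wide range, but nearly all were found in nearly every cell. At a TPM of 1 or more, 76 of 81 members reached 90% of cells, as 1.94% of all genes did, and 45 members were seen in all 96. Members made up 27 of the 50 genes of highest mean TPM, and 53 of the first 100. Mean TPM exceeded 1000 for 69 members. TPM is scaled by transcript length, but not for reads that fit near-identical copies, so the order of genes by level is approximate.

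**Figure D1:**
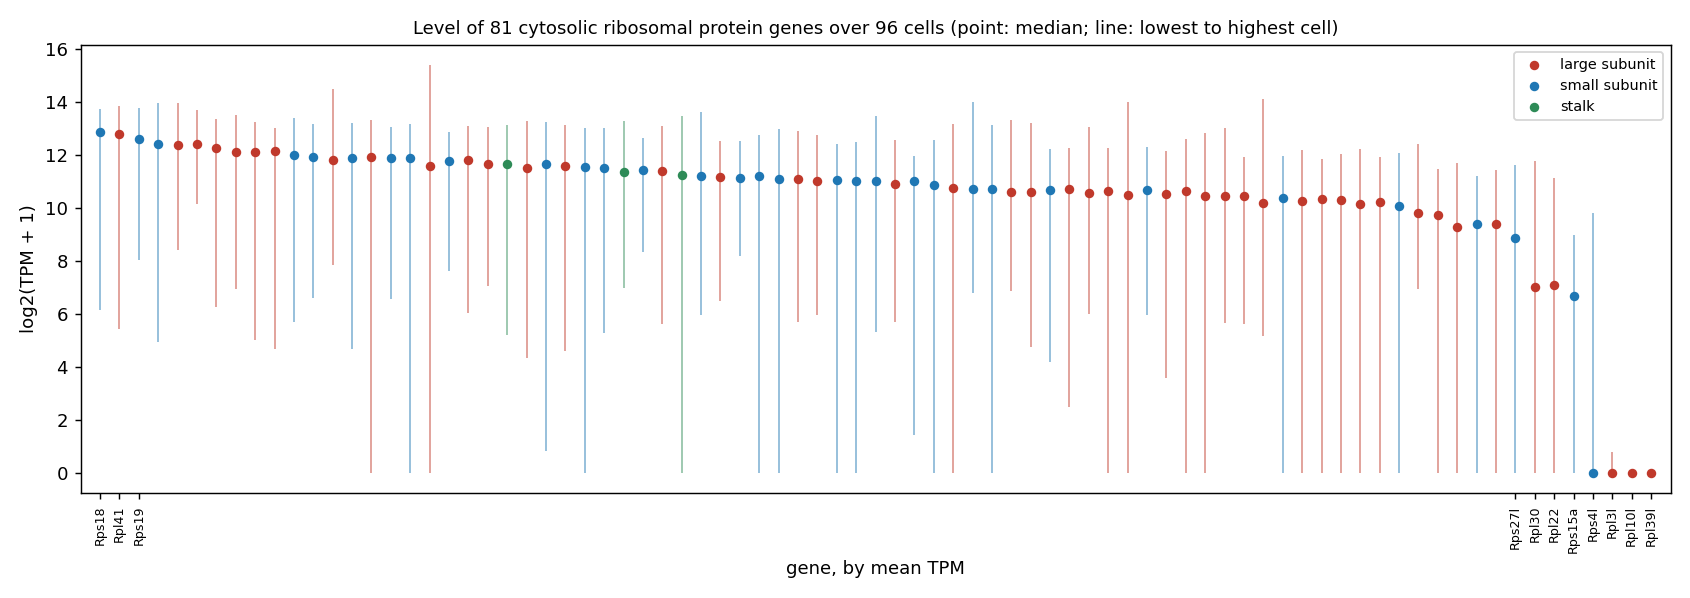
Level of each of the 81 genes on the log2(TPM + 1) scale, ordered by mean TPM, with the median cell as a point, the lowest to highest cell as a line, and the subunit as colour, and with names for the genes at the ends. Most medians lie between 8 and 13, Rpl30, Rpl22 and Rps15a lie below them, and Rps4l, Rpl3l, Rpl10l and Rpl39l have a median of 0.

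The highest mean was that of Rps18, a protein of the small subunit's head, at 7567 TPM, with a lowest cell of 68.9, a median of 7459 and a highest of 13630. Rpl41, the smallest ribosomal protein, followed with a mean of 7143 TPM and cells from 41.4 to 14666 around a median of 7000. Rps19, which is needed for maturation of the small subunit's RNA, had a mean of 6636 TPM, a lowest cell of 263, a median of 6161 and a highest of 13838. The order of these 3 genes is not firm, since each gene's cells spanned far more than the gap between their means. Rps14, Rpl32, Rpl13, Rpl9, Rpl3 and Rpl4 were also among the first 10, with means from 5855 TPM for Rps14 to 4282 TPM for Rpl4. The first 10 took 5.65% of all TPM in the mean cell.

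At the other end, Rps15a, a protein of the small subunit, averaged 113 TPM and was still found in 95 of 96 cells, at a median of 101 TPM. Rpl22, a large-subunit protein without which mice survive, averaged 178 TPM and was found in 93 cells, at a median of 134 TPM. Near-identical copies can take reads from such genes, and for Rps15a 2 copies in the table, Rps15a-ps6 and Rps15a-ps4, averaged 35.5 and 70.9 TPM. The level of Rps15a alone is therefore uncertain.

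Members whose symbol ends in l are mostly paralogues. Rpl10l and Rpl39l were listed at 0 in all 96 cells, and Rpl3l, known from muscle, reached 0.74 TPM at most. Rps4l, annotated in GENCODE M21 as a transcribed processed pseudogene at chr6:148354656-148355598, was found in 11 of 96 cells (11.5%, Clopper-Pearson 95% interval 5.86 to 19.6, counting error only). In its highest cell it reached 882 TPM. Rps27l, a paralogue of Rps27 known as a p53 target, was widely expressed, with 89 of 96 cells and a median of 466 TPM. Rps4x, the X-linked small-subunit gene, was found in every cell, between 60.7 and 12399 TPM with a median of 2322.

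The members varied less from cell to cell than other abundant genes, which were not matched to them in level or detection. Those other genes were found in a median of 93.75% of cells, and the part of detection in the spread was not tested. Over the 96 cells, the median SD of log2(TPM + 1) was 1.19 for the 74 members with a mean of at least 500 TPM and 2.87 for 252 other genes past the same mean. It was lowest for Rpl13, a large-subunit protein, at 0.63, for Rps19 and Rps29 at 0.63 each, and highest for Rpl30 at 4.47.

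Within states the spread differed. The median SD over the 76 members found in at least 90% of cells was 1.37 in Multi-Lin-1, 0.53 in IG2, 0.45 in proNeu-1 and 1.39 where no state was given. Of these 76, 72 had a smaller SD in IG2 than in Multi-Lin-1, as did 63 among cells numbered 078 alone and 73 among cells numbered 079 alone (a number in the cell names, 48 cells each, whose meaning is not given). Rpl32, for example, ran from 433 to 16037 TPM in Multi-Lin-1 around a median of 7223, and from 2536 to 6499 TPM in IG2 around a median of 4322. The narrower spread was not particular to these genes, since 173 of 180 other genes of at least 500 TPM in at least 90% of cells had it too. More genes were detected per IG2 cell (median 3940) than per Multi-Lin-1 cell (median 2950). Reads per cell are not given, and the part of depth in the spread was not tested.

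The summed share of TPM was highest in Multi-Lin-1. There the 81 genes took a median of 22.7% of all TPM (lowest cell 17.05%, highest 33.7%, n = 26 cells). In IG2 they took 18.3% (14.6% to 23.7%, n = 31) and in proNeu-1 18.2% (15.7% to 19.3%, n = 12). Cells without a state had a median of 21.01% and the widest range, 5.81% to 29.01% (n = 27). The ranges overlapped, but 29 of 31 IG2 cells lay below the Multi-Lin-1 median, and 10 of 26 Multi-Lin-1 cells lay above every IG2 cell. IG2 and proNeu-1 differed by 0.13 percentage points, less than the SD of 2.38 over IG2 cells, with proNeu-1 above IG2 in cells numbered 078 and below it in those numbered 079.

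**Figure D2:**
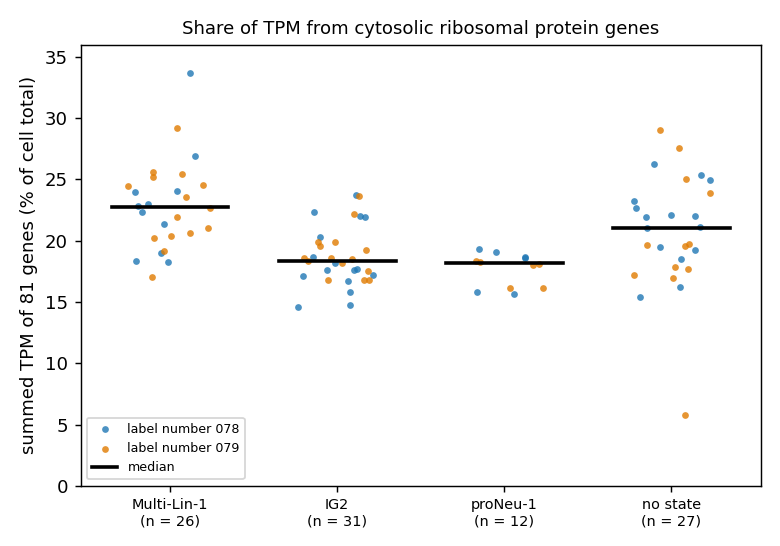
Summed TPM of the 81 genes as a percent of each cell's total, by state, with 1 point per cell, colour for the label number and a bar at the median. Multi-Lin-1 cells centre on 22.7%, IG2 cells on 18.3% and proNeu-1 cells on 18.2%, and 1 cell without a state lies at 5.81%.

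The same order held in both label numbers for Multi-Lin-1 above IG2: 22.8% and 17.6% among cells numbered 078, and 22.6% and 18.5% among those numbered 079. Both subunits took part. The small subunit's median share was 9.93% in Multi-Lin-1 and 7.77% in IG2, and that of the large subunit without the stalk 12.1% and 9.62%. The stalk genes stood at 0.90% and 0.87%, with opposite order in the label numbers. The ratio of small-subunit to large-subunit and stalk TPM stayed near 0.79 in Multi-Lin-1 and 0.78 in IG2.

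TPM is a share of a fixed total, so genes that take much of it lower the rest. The 10 primary granule genes, such as Mpo and Elane, which encode enzymes of the neutrophil's first granules, took a median of 0.14% of TPM in Multi-Lin-1, 3.88% in IG2 and 7.47% in proNeu-1. With those genes left out and TPM rescaled, the members' shares were 22.8%, 19.4% and 19.8%, and the gap between IG2 and Multi-Lin-1 narrowed from 4.40 to 3.37 percentage points. Erythroid and megakaryocyte markers moved with the gap as well, with a summed median of 633 TPM (0.5 to 5676) in Multi-Lin-1 and 9.08 TPM (0 to 1243) in IG2. Mast cell and basophil markers had 996 TPM (0 to 9026) and 834 TPM (21.5 to 6275). Their part in the summed share was not tested. The single lowest cell, at 5.81%, also had the fewest genes detected (1019) and 55 members detected, and the next lowest cell stood at 14.6%.

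Gene by gene, few members differed 2-fold between states, although many other genes did. From Multi-Lin-1 to IG2 the mean log2(TPM + 1) was higher by more than 1 for 2 of the 78 members found in at least 10% of cells, Rpl30 and Rps27l, against 31.1% of the 8044 genes measured by the same filter. No member was lower by more than 1, against 2.54% of genes. The median difference was -0.06 over members and 0.53 over all genes. Restricting both to genes found in at least 90% of cells gave 1 of 76 members higher (median -0.07) and 114 of 388 other genes (median 0.52).

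Compared by median cells instead of means, the members' median difference was -0.28, 61 of 78 lay below 0, and Rpl24 passed a difference of 1 downward.

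Mitochondrial ribosomal protein, biogenesis and initiation genes were higher in IG2 by more than 1 more often than the 31.1% of all genes. Of 77 mitochondrial ribosomal protein genes, which serve the separate ribosome of mitochondria, 52 were higher and 2 lower in IG2 by more than 1 (median 1.47). Of 31 ribosome biogenesis genes, 19 were higher and 0 lower (median 1.33). They included Nop16 (3.01), Nop2 (2.83, a methyltransferase of the large ribosomal RNA), Nhp2 (2.64, a protein of RNA-guided pseudouridylation), Rrn3 (2.54, an initiation factor of RNA polymerase I) and Gnl3 (2.51, nucleostemin). Of 18 initiation factors 11 were higher and 0 lower, led by Eif6 (3.76), which keeps the subunits apart, and Eif1ax (3.36). Among all genes found in at least 50% of cells, 49.3% were higher by more than 1 (median 0.97). Only 0 mitochondrial, 6 initiation and 2 biogenesis genes were found in at least 90% of cells, of which 0, 3 and 1 were higher. These lists hold less abundant genes, of which more are found in cells where more genes are detected. The share of that in the difference was not tested.

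**Figure D3:**
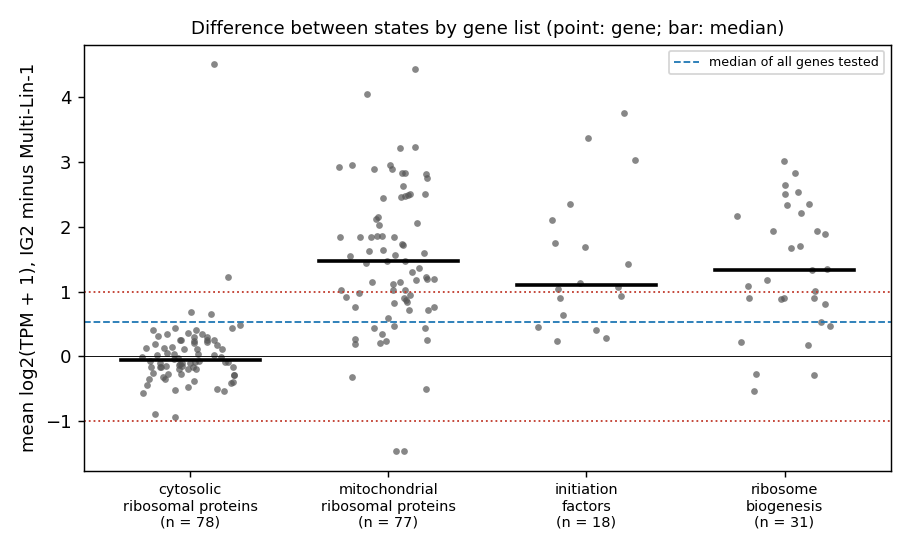
Difference in mean log2(TPM + 1), IG2 minus Multi-Lin-1, with 1 point per gene and a bar at each list's median: -0.06 for 78 cytosolic ribosomal protein genes, 1.47 for 77 mitochondrial ones, 1.10 for 18 initiation factors and 1.33 for 31 biogenesis genes. Dotted lines mark a difference of 1 in either direction, and the dashed line the median of all genes, 0.53.

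Closer relatives of the members gave shares at or below the 31.1% of all genes that were higher by more than 1. Elongation factors and other TOP mRNAs gave 3 of 16 higher and 0 lower (median 0.40), those 3 being Eif3f (2.47), Hnrnpa1 (2.15) and Eif3h (1.43). Eef1a1, which carries aminoacyl-tRNA to the ribosome and is the model TOP mRNA, differed by 0.09. Of 9 ribosomal genes whose symbols fall outside the naming rule, Rpl7l1 (2.74) and Rpl36al (1.13) were higher. The ribosomal proteins Fau, Gnb2l1 (RACK1) and Rps3a1 lay between -0.34 and 0.32. None of 7 listed ribosomal protein pseudogenes passed 1. Among 10 TOP and growth regulators found in enough cells, Eif4ebp1 (2.82, the mTOR-controlled brake on Eif4e), Rps6ka1 (1.89) and Rps6kb1 (1.88, the S6 kinase) were higher, and Larp1 differed by 0.87.

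The largest difference of any member, that of Rpl30, went with the presence of a near-identical copy in the table. Rpl30 (chr15:34440505-34443640 on GRCm38, minus strand) encodes a small protein of the large subunit. In Multi-Lin-1 its median was 0 TPM, with a highest cell of 1719, and 11 of 26 cells had at least 1 TPM. In IG2 its median was 576 TPM, with cells from 0 to 1935, and 28 of 31 cells had at least 1 TPM. The mean log2 values were 3.58 ± 4.45 (SD over 26 cells) and 8.09 ± 3.08 (SD over 31 cells), a difference of 4.51. In cells without a state it was found in 10 of 27, and in proNeu-1 in 11 of 12.

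Gm12191 is a processed pseudogene on another chromosome (chr11:49678710-49679057, minus strand). Its 348 bases aligned with the coding sequence of Rpl30 with 1 base that differs, the substitution G96A, counted from the A of the start codon, with the base of Rpl30 first. Bases 66 to 125 of both, from GENCODE M21, are shown because they hold the 1 base that differs within the 348 aligned bases. That base is in capitals.
Rpl30: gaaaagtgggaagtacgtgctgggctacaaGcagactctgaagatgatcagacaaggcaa
Gm12191: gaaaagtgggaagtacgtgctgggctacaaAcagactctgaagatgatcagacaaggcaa
Of the words of 50 bases in Gm12191, 83.3% also occur in Rpl30 transcripts.

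Gm12191 was listed in all 96 cells, with a mean of 1749 TPM against 447 TPM for Rpl30. In the 36 cells with Rpl30 under 1 TPM it ran from 115 to 5301 TPM around a median of 1841. A value for the splice junctions of Rpl30, which a processed pseudogene does not have, was nevertheless deposited in 34 of those 36 cells. When the TPM of the pair was added, the mean log2 value was 10.98 ± 1.13 in Multi-Lin-1, 11.02 ± 0.60 in IG2, 10.59 ± 0.65 in proNeu-1, and 10.50 ± 1.53 where no state was given. The difference between IG2 and Multi-Lin-1 was then 0.04 in place of 4.51.

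**Figure D4:**
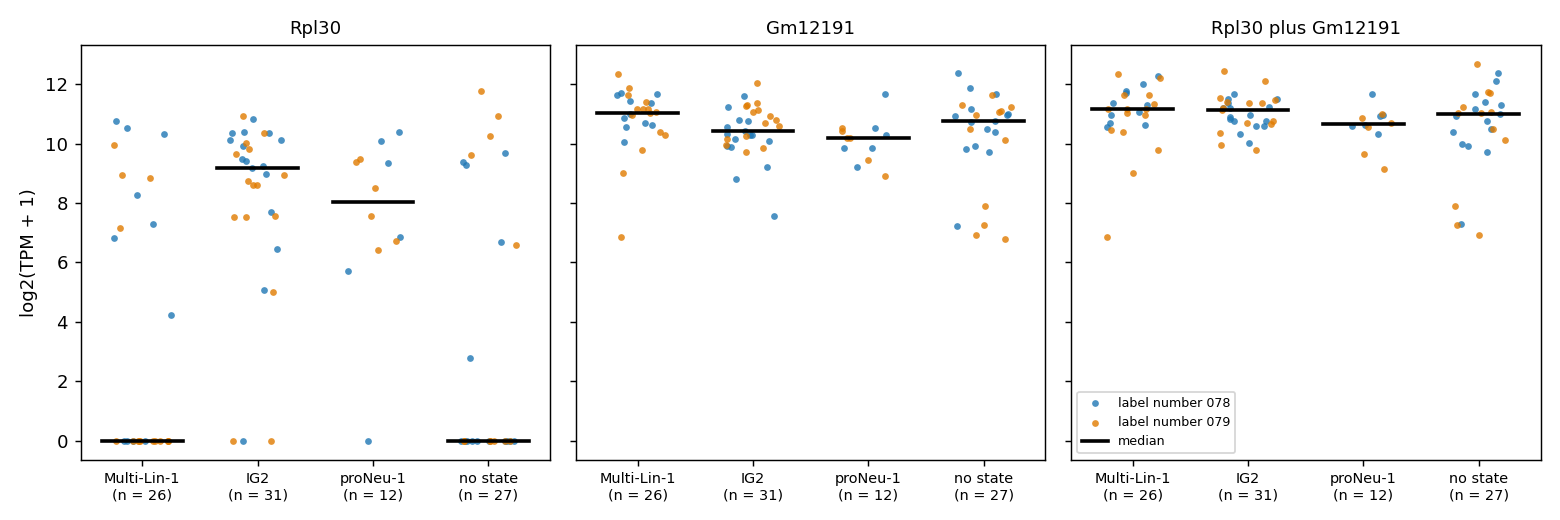
Level of Rpl30, of its near-identical copy Gm12191 and of their summed TPM on the log2(TPM + 1) scale, by state, with 1 point per cell and a bar at the median. The Rpl30 median is 0 both in Multi-Lin-1 and where no state was given, while the sum has means of 10.98 in Multi-Lin-1 and 11.02 in IG2.

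Other members share words with a copy as well. In the annotation 69 of 81 members have a transcript elsewhere that takes at least 25% of its 50-base words from them, and 8 members have such a copy in the table. Rps27, which has a zinc finger, and Rps27rt, an intronless gene with the same 255 coding bases, shared 91.1% of words and their levels ran opposite across the 96 cells (Spearman's rho -0.34, a description over cells of 1 sample). Their sum was 11.91 ± 0.52 in Multi-Lin-1 and 11.47 ± 0.52 in IG2, against SDs of 3.14 and 3.32 for Rps27 alone. Rpl26 and its pseudogene Gm15772 (2 of 438 bases differ, C177T and T288C) had a rho of -0.28. By contrast, Rpl34 and Rpl34-ps1 (T132C and C318G) had a rho of 0.61. Copies also align with Rps26, Rps15a, Rpl14 and Rpl31. Values of Rpl30, Rps27, Rpl26, Rpl34, Rps26, Rps15a, Rpl14 and Rpl31 alone are uncertain where reads fit both.

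The other members at the ends of the comparison from Multi-Lin-1 to IG2 had smaller gaps. Rps27l had medians of 426 TPM (0 to 3148) in Multi-Lin-1 and 598 TPM (0 to 1655) in IG2, and a mean log2 difference of 1.23. It was 0.65 in cells numbered 078 and 1.73 in cells numbered 079, and 0.49 between medians, so whether it passes 1 depends on the cells and the average used. Rps10, Rpl7a and Rps26 followed with 0.68, 0.66 and 0.49.

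Rpl24, which forms a bridge between the subunits, was lowest. Its cells ran from 25.5 to 9503 TPM around a median of 2384 in Multi-Lin-1, and from 182 to 3794 around 1189 in IG2. The mean log2 difference was -0.94, with -0.98 in cells numbered 078 and -0.93 in those numbered 079. The ranges overlapped, and the SD over Multi-Lin-1 cells was 1.46. Rps27 (-0.88), Rpl17 (-0.57), Rpl32 (-0.54) and Rpl37 (-0.52) came next. The sign was the same in both label numbers for 42 of 78 members.

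Between IG2 and proNeu-1, in which primary granule genes were higher, no member differed by more than 1 in either direction. Over all genes 13.6% were higher and 10.2% lower in proNeu-1 by that much. The median member difference was -0.02, and 0.04 once the primary granule genes were left out. The widest values, Rpl12 at 0.66, Rpl30 at -0.56 and Rps4l at -0.55, each changed sign between the label numbers. Among the members of like sign in both, the highest were Rps13 (0.31), Rpl8 (0.29), Rpl23 (0.28), Rpsa (0.27) and Rps20 (0.24). The lowest were Rpl3 (-0.54, at the peptidyl transferase centre), Rpl28 (-0.43), Rpl5 (-0.38), Rps6 (-0.36) and Rpl35a (-0.35). Rpl3 had a median of 4523 TPM (2759 to 9450) in IG2 and 3241 TPM (1712 to 5535) in proNeu-1, with most of the ranges shared.

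Few members differed by more than 1 between cells without a state and Multi-Lin-1. Lower means without a state were found for 59 of 78 members, beside 4703 of all 8044 genes. None of the 78 members was higher by more than 1 (5.21% of all genes) and 2 were lower (12% of all genes), with a median of -0.24 over members and -0.13 over all genes. In cells with at least 2000 genes detected these medians were -0.06 and -0.11, so the members' median then lay nearer to 0. Rps20, of the small subunit's head, had medians of 3342 TPM (72.5 to 4638) and 1793 TPM (0 to 5392) and a difference of -1.17. Among cells with at least 2000 genes detected, the difference of Rps20 was -0.86, so it no longer passed 1, and this leaves 25 of the 27 cells without a state.

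Rpl24 (-0.93), Rpl15 (-0.83) and Rpl36a (-0.77) followed on the lower side. Of the members whose sign was alike in 078 and 079, the 5 highest were Rpl38 (0.64), Rplp2 (0.56), Rpl39 (0.44), Rps9 (0.41) and Rpl37a (0.36). Rps28 (0.57) changed sign between the label numbers. Markers of other lineages moved with this group: summed mast cell and basophil markers had a median of 2781 TPM (0.58 to 78857) in cells without a state and 996 TPM (0 to 9026) in Multi-Lin-1. Erythroid and megakaryocyte markers had 916 TPM (0 to 17054) and 633 TPM (0.5 to 5676), with Hbb-b1 at 0 in all cells. Their part in the members' levels was not tested.

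The 11 members linked to Diamond-Blackfan anaemia showed no difference past 1 between Multi-Lin-1 and IG2 or between IG2 and proNeu-1, with medians of -0.07 and -0.21. From Multi-Lin-1 to cells without a state their median was -0.20, and 1 of the 11 was lower by more than 1, against 12% of all genes. In Multi-Lin-1 their mean log2 levels ran from 12.85 ± 0.38 for Rps19 to 9.71 ± 1.76 for Rps10, with Rps24 at 9.78 ± 1.74. Rpl5 and Rpl11, which together with 5S RNA bind Mdm2 when ribosome assembly fails, had Multi-Lin-1 medians of 2080 TPM (885 to 4949) and 2772 TPM (89.3 to 5850), and IG2 medians of 1894 TPM (624 to 3403) and 2226 TPM (1086 to 4810).

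Members varied together across cells, weakly. The median Spearman rho over 3003 pairs of the 78 members was 0.14 across 96 cells, and 86.8% of pairs were above 0. For 388 other genes found in at least 90% of cells it was 0.03, with 60.3% of pairs above 0. Within IG2 the members' median was 0.12, within Multi-Lin-1 0.11, within proNeu-1 0.05 and where no state was given 0.16. All pairs share libraries and cell totals, and in single-cell values of this spread so low a rho is a description only. The highest pairs were Rpl32 with Rps7 (0.55), Rpl24 with Rpl32 (0.54) and Rpl3 with Rpl4 (0.53). The lowest were Rpl30 with Rpl32 (-0.31) and with Rps9 (-0.27), where the value of Rpl30 alone is uncertain.

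Of genes that are not members, Gm12191 had the highest rho with the summed share of the members (0.48), followed by Tmsb10 (0.47, thymosin beta 10), Gm5643 (0.45), Notch2 (0.42) and Fth1 (0.40, ferritin heavy chain). Gm12191 shares sequence with Rpl30, so it is no independent likeness. The most opposed were Elane (-0.58), Hp (-0.55, haptoglobin), Gda (-0.52, guanine deaminase), Ms4a3 (-0.51) and Mpo (-0.51). Elane and Mpo take up part of the same total. With the primary granule genes left out of the total, Elane stood at -0.45 and Mpo at -0.37. Within states Elane stood at -0.08 in Multi-Lin-1, -0.29 in IG2, -0.58 in proNeu-1 and -0.44 where no state was given. Mpo stood at 0.10, -0.35, -0.04 and -0.28 in the same order. Ms4a3 stood at -0.02, -0.41, 0.27 and -0.23. The genes of positive rho were uneven as well. In that order Tmsb10 stood at 0.004, 0.59, 0.55 and -0.13, and Fth1 at 0.04, 0.59, 0.58 and 0.15. Notch2 stood at 0.38, 0.22, 0.50 and -0.01, and Gm5643 at 0.47, 0.39, 0.20 and 0.24.

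Most splicing events of the members were used nearly always or nearly never, as in other genes. The authors' splicing data give percent spliced in (PSI), a fraction of junction reads from 0 to 1 that takes a given junction, with no read counts, so its precision is unknown. They hold 293 events in 64 members, 162 of them intron retention. Of 273 events with a value in at least 48 cells, 8 (2.93%) had a median between 0.1 and 0.9, against 2.05% of 5017 events of other genes. All 148 intron retention events with that many values had a median within 0.02 of 0 or 1, as did 99.4% of 2187 such events of other genes.

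Use differed between states in Rps24, one of the Diamond-Blackfan genes. Its small cassette exon, at chr14:24495430-24495449 on the plus strand (GRCm38, GENCODE M21), has 20 bases and opens with the stop codon, in capitals. It is shown because its inclusion ends the reading frame.
Rps24 exon: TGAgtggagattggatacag
The junction measured runs from base 24493493 to base 24495775 and passes over this exon and any other between. When the exon is skipped, 9 coding bases, 3 codons, of the last exon are read before the next stop.

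The PSI of the skipping junction of Rps24 had a median of 0.75 in Multi-Lin-1 (lowest cell 0.13, highest 1, 25 cells with a value). The medians were 0.996 in IG2 (0.72 to 1, 31 cells), 0.996 in proNeu-1 (0.43 to 1, 12 cells) and 0.98 where no state was given (0.54 to 1, 26 cells). The ranges overlapped at the top, but 23 of 25 Multi-Lin-1 cells lay below the IG2 median, 11 lay below every IG2 cell, and 2 of 31 IG2 cells lay below the Multi-Lin-1 median. The junction that leaves the exon for the last one had medians of 0.11 in Multi-Lin-1 and 0 in IG2. In cells numbered 078 the skipping medians were 0.73 in Multi-Lin-1 and 0.997 in IG2, and in cells numbered 079 they were 0.80 and 0.97.

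The TPM of Rps24 had medians of 1082 in Multi-Lin-1 (20.2 to 4311) and 1087 in IG2 (414 to 1953). The difference of its mean log2 values, IG2 minus Multi-Lin-1, was 0.30. It was 0.02 in cells numbered 078 and 0.52 in those numbered 079. Skipping PSI had a rho of 0.10 with genes detected and -0.19 with the gene's own TPM over 94 cells. In cells without a state, which had the fewest genes detected (median 2613), the skipping median was 0.91 in cells numbered 078 and 0.99 in those numbered 079. In proNeu-1 it was 0.88 and 1 (6 cells each), so both groups lay below IG2 in 078 and above it in 079.

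**Figure D5:**
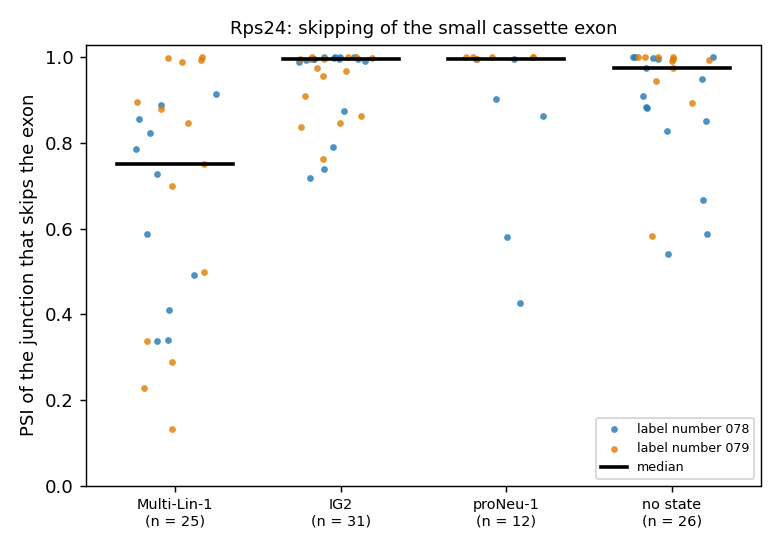
PSI of the junction that skips the small cassette exon of Rps24, by state, with 1 point per cell that has a value and a bar at the median. Multi-Lin-1 cells spread from 0.13 to 1 around 0.75, while the IG2 and proNeu-1 medians are 0.996.

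Alternative junctions of Rps28, Rpl38 and Rpl29 were of intermediate use. Rps28 has a pair of splice donors 4 bases apart, past its stop codon, and the longer form had a median PSI of 0.63 over 95 cells (0.70 in Multi-Lin-1, 0.63 in IG2, 0.61 in proNeu-1 and 0.60 where no state was given). The 20 bases up to the longer donor, chr17:33823193-33823212 on the minus strand, are shown with the added bases in capitals.
Rps28: gttaatcttgcagctgGTGG
Rpl38, whose donors lie 17 bases apart ahead of the start codon, had a median of 0.60 for the shorter form over 93 cells, 0.54 in Multi-Lin-1 and 0.61 in IG2. Rpl29 has donors 63 bases apart, and the donor at base 106429639 of chromosome 9 had a median of 0.64 over 76 cells, with 0.68 in both Multi-Lin-1 and IG2, 0.78 in proNeu-1 and 0.46 where no state was given. For these 3 genes the medians of the states lay closer together than the range over cells of any state. The same was true of Rps24, so this does not set them apart from it. The medians of Rpl29, from 0.46 to 0.78, lay further apart than those of Rps24.

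A minor first exon of Rpl35a and a minor donor of Rpl31 were seen more often in IG2 than in Multi-Lin-1: median PSI was 0.16 against 0.002 for Rpl35a and 0.07 against 0 for Rpl31. They moved with genes detected, with a rho of 0.62 over 92 cells for Rpl35a and 0.35 over 94 cells for Rpl31. For Rps24 that rho was 0.10 for the skipping junction and -0.21 for the junction that leaves the exon for the last one. The part of depth in these differences, and in that of Rps24, was not tested.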

How the data were processed

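The authors deposited expression as log2 of RSEM TPM. Undoing log2(TPM + 1) made every cell total 1000000, which is the scale of each log2 value given. Splicing was deposited by the authors as a fraction (PSI). The submitters' processing notes name Bowtie2, STAR, RSEM, mm9 and mm10, without versions or roles. The 1142 splicing columns and 511 state entries that no label maps were not used.

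A gene counted as detected at a TPM of 1. Differences are of means over cells with a pseudocount of 1, for 8044 genes detected in at least 10% of cells, and a difference past 1 is called higher or lower. Copies share at least 25% of 50-base words with a member's GENCODE M21 transcripts. Named genes are the 10 members of highest mean, the 5 highest and 5 lowest per comparison with 1 sign in both label numbers, Diamond-Blackfan members, members ending in l or x, the 5 most and least like genes, and list members. Splicing events were named after their values were seen. Members and lists were chosen with earlier results of these data known. The calculation of differences was tested on simulated data in which the spread of each gene was capped, so that test does not bear on the calls made here. Reads per cell are not given, so depth is unknown, and intervals cover counting error only. Python 3.11.15, pandas 2.3.3, SciPy 1.17.1 and Biopython 1.88 were used. Some genes that the naming rule or lists select are not reported here by name.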

Additional observations from a re-analysis of the deposited data

How the results depend on the processing

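No paired analysis was possible because there is 1 group of 1 sample. Alternatives were run for the count of members found in at least 50% of cells (77 at a TPM of 1, 5 and 30), the 3 differences between states, the summed share and the co-variation, and 134 of 155 values moved by less than the spread over members or cells, or, for counts, by no more than 1.5 times. For a median difference that spread is the SD over members, so changes of its sign pass. In IG2 minus Multi-Lin-1, the members higher by more than 1 numbered 1 in place of 2 with a pseudocount of 10, with medians over cells, in cells with at least 2000 genes, and with the TPM of copies added to their member, an alternative chosen after seeing the data (11.8%, 25.1%, 28.8% and 31.04% of all genes). The members lower numbered 1 in place of 0 with medians, in cells numbered 078, in those numbered 079 and in cells with at least 2000 genes (2.20%, 6.76%, 5.18% and 3.06% of all genes). In proNeu-1 minus IG2, 1 member was lower with medians and 2 were lower in cells numbered 078 (8.80% and 20.3% of all genes), and 2 were higher in those numbered 079 (24.02%). In cells without a state minus Multi-Lin-1, the members lower numbered 1 with a pseudocount of 10, 0 with medians, 0 in cells with at least 2000 genes and 8 in cells numbered 079 (3.32%, 10.3%, 12.6% and 17.1% of all genes), where 3 were higher (10.9%). The cause was not tested. The median member difference of IG2 minus Multi-Lin-1 was -0.25 in cells numbered 078 and 0.13 in those numbered 079, so its sign is not settled. That of cells without a state minus Multi-Lin-1 ran from -0.33 in cells numbered 079 to -0.06 in cells with at least 2000 genes. With the 50 highest other genes left out, the summed shares were 27.4% in Multi-Lin-1, 22.9% in IG2, 23.3% in proNeu-1 and 25.9% where no state was given, since the total is then smaller. For the same reason the proNeu-1 share was 19.8% without the primary granule genes. The median rho between members was 0.25 once genes detected and label numbers were regressed out of log2(TPM + 1). This was not run for other genes, so whether the rise is particular to the members was not tested. Depth is unknown, and with 1 sample no value here speaks of other animals.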

Other observations

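An event of Rps18, among the 8 of intermediate use, joins base 33981369 of chromosome 17 to base 33955663, near the annotated start of the gene. Its PSI had a median of 0.31 over 94 cells, and 0.27 in Multi-Lin-1, 0.30 in IG2, 0.33 in proNeu-1 as well as where no state was given. An event of Rps28 begins at the same base, with a median of 0 over 92 cells.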
